A study of Mus musculus with 60 samples.

Results

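Cytosolic ribosomal protein genes encode the protein parts of the small and large ribosomal subunits, here in bulk hippocampus of AppNL-G-F and wild-type mice. The genes were taken by symbol as rows of the gene count table named Rps or Rpl with a number, optionally followed by a, l or x and a further digit, together with Rplp0 to Rplp2 and Rpsa, at a mean of at least 1 CPM (counts per 1000000 counts of the library) over all 60 libraries. Of 35976 gene rows, 85 had such a symbol and 82 were kept, 33 of the small and 49 of the large subunit. Just outside the minimum were Rpl3l (mean 0.181 CPM), Rpl39l (0.0645 CPM) and Rpl10l (0 CPM), paralogs known from striated muscle and testis, and just inside were Rpl32l (1.05 CPM), Rps27l (6.16 CPM) and Rps4l (19.9 CPM). All 82 passed the filter on low counts in every comparison. From here on, levels in CPM use library totals scaled by TMM normalization, whereas shares of counts use the unscaled totals.

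AppNL-G-F (NLGF) mice carry familial Alzheimer's disease mutations knocked into their own App gene, so that the mutant protein is made under the native promoter in every cell that uses App. The groups were NLGF at week 3, week 8 and week 24, against wild type (WT) at week 3, week 8 and week 24, with 5 female and 5 male libraries in each, from total hippocampal RNA after removal of ribosomal RNA. The strain background was not given in the sources used here. The study treats the samples as biological replicates, but the labels do not say that each aliquot came from its own animal, so each p-value reflects sample-to-sample spread, which may be technical. The comparisons ask how the genotypes differ at each age, with sex as a covariate, and how the genes change with age in each genotype.

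Ribosomes are built in the nucleolus from ribosomal RNA and about equal amounts of each ribosomal protein, and surplus free protein is degraded. Many mRNAs of these proteins begin with a run of pyrimidines, the terminal oligopyrimidine (TOP) motif, through which mTOR and the RNA-binding protein Larp1 set their translation and stability. In the hippocampus, ribosome supply is known to bear on the growth of neurons and on protein synthesis at synapses. mRNA counts do not measure protein or translation.

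Library totals ran from 17786578 to 73423252 counts (median 26097235). Among the 10 NLGF week 3 libraries, 7 had totals of at least 54026870 counts (females 1, 4 and 5, males 2 to 5), while no other library exceeded 35162084. These 7 deep libraries are shown apart, and all comparisons over age leave them out, so NLGF week 3 then rests on 3 libraries (females 2 and 3, male 1). The deep libraries also differed in rows that resemble ribosomal protein genes: 12 pseudogene rows made up a median of 0.000368% of counts in the deep libraries, against 0.00134% in WT week 3 libraries. Retrocopy row Rpl37rt, which is not among these 12, had a median of 1.07 CPM in the deep libraries. Its medians were 11.2 CPM in the 3 other NLGF week 3 libraries and 8.14 CPM in WT week 3 libraries. Because the kind of library and the genotype largely coincide at week 3, they cannot be told apart in the deep libraries.

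Several other libraries stood apart. WT week 8 female 1 had the lowest summed share of the 82 genes of all libraries (0.649% of counts, next in its group 0.868%). WT week 3 male 5 and WT week 8 male 3 had the highest Rps14 and the lowest Rps27 of the 53 libraries without the deep ones, at the end of a graded series described with the co-variation. The library labelled NLGF week 8 female 1 carries a week 3 age in another label field, and the sex label of NLGF week 3 male 2 has been found to conflict with its counts. NLGF week 8 female 5 had a summed level of 14060 CPM over 6 oligodendrocyte markers, while the other NLGF week 8 libraries did not exceed 5542 CPM. Over 5 oligodendrocyte precursor markers it had 528.5 CPM, and the others did not exceed 329.7 CPM. The 3 other NLGF week 3 libraries had 431.1 to 541.2 CPM there. Female 1 stood at 3509 and 304.6 CPM in these sums. Over 5 proliferation and immature neuron markers, females 5 and 1 had 114.2 and 108.4 CPM, and NLGF week 8 male 5 came next with 98.35 CPM. WT week 8 male 5 was higher than these, at 128.6 CPM. It also had 7496 CPM over the oligodendrocyte markers, while the other WT week 8 libraries did not exceed 5183 CPM. Whether the age label of any of these libraries is wrong was not tested. App itself, which the mutations do not delete, was not called between genotypes with all libraries (log2 fold change -0.09 at week 3, -0.21 at week 8 and -0.10 at week 24, adjusted p = 0.286, 0.633 and 0.375 in edgeR's quasi-likelihood test), so its count does not check the labels.

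RefSeq start sites (GRCm38.p6) were on hand for 61 of the 82 genes. In the window from 15 bases before to 15 bases from the annotated start, 45.9% of the 61 genes held a run of at least 8 pyrimidines, against 13.9% of all 27025 genes in the table. A C at the annotated start followed by 4 more pyrimidines, the form of a TOP motif, was found in 23% of the 61 genes and in 3.01% of all genes. The motif CCGGAAG, the core bound by ETS-family factors, was found on either strand within 300 bases around the start (250 before, 50 after) in 41.0% of the 61 genes and in 9.93% of all genes. The windows below show genes to which the results return, with the longest pyrimidine run in capitals; the first 4 rose between week 3 and week 24 in NLGF, the next 3 were lower in the deep NLGF libraries than in WT, and the last, Rps26, is the gene called between genotypes at week 24.
Rpl27a (chr7:109519180-109519209, plus strand): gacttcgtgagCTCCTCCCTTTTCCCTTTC
Rpl34 (chr3:130730323-130730352, minus strand): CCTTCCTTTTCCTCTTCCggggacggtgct
Rpl35 (chr2:39005117-39005146, minus strand): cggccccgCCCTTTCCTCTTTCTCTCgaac
Rpl35a (chr16:33056467-33056496, plus strand): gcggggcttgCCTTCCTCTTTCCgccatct
Rpl5 (chr5:107900513-107900542, plus strand): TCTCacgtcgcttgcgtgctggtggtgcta
Rps3a1 (chr3:86142654-86142683, minus strand): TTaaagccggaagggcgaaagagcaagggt
Rps6 (chr4:86857353-86857382, minus strand): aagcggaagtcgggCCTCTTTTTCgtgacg
Rps26 (chr10:128626492-128626521, minus strand): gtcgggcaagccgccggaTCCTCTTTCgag

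The 4 large-subunit genes shown as rising with age, a few of those that rose, have runs of 13 to 19 pyrimidines. Rpl5, Rps3a1 and Rps6, shown as lower in the deep libraries, have 4, 2 and 10. Among genes not shown, Rps24, which also rose in NLGF, and Rps9, also lower in the deep libraries, each have a run of 9. Over all 61 genes, between week 24 and week 3 in NLGF, 19 of 28 genes with a run of at least 8 rose and 22 of 33 with a shorter run rose, at medians of 0.29 and 0.25 on the log2 scale. In WT over the same ages 13 of the 28 and 10 of the 33 rose, at medians of 0.146 and 0.0969, and 3 fell in each set. In the deep NLGF libraries 16 of the 28 and 20 of the 33 were lower than in WT, and 3 and 0 were higher. Whether the 2 sets differ was not tested. An annotated start is not a mapped one, so a missing run says only that these letters are not in the window.

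Levels among the genes spanned a wide range even per length. Dividing the mean CPM of the 53 libraries without the deep ones by the length of the principal annotated transcript (GENCODE vM21, GRCm38; known for 80 genes, median 803.5 bases), the median was 125.5 CPM per kilobase. Highest were Rplp1, an acidic protein of the large-subunit stalk that recruits translation factors (460 CPM per kilobase), Rpl41, the smallest large-subunit protein (454), and Rps29, a zinc-binding small-subunit protein (368). Lowest of the 80 were Rps27l, a paralog of Rps27 known as a p53 target (12.1 CPM per kilobase), Rpl7l1, a paralog of Rpl7 (14.3), and Rps15a (15.7). The value of Rps15a rests on an annotated transcript of 5130 bases. Rpl32l, at a mean of only 1.05 CPM over all 60 libraries, is not among the genes ranked per length. Paralog pairs differed in the same scale: Rps27 stood at 176 CPM per kilobase against 12.1 for Rps27l, whereas Rpl22l1 (41.3) was above Rpl22 (29.5), the paralog that in mouse is known to repress it. Before division by length the order of Rpl22l1 and Rpl22 was the reverse, with means of 27.5 and 58.6 CPM in WT week 24. Their order per kilobase thus rests on the annotated transcript lengths. Rplp0, which anchors the stalk, was at 111 CPM per kilobase and Rplp2, the partner of Rplp1, at 170. The annotation holds 293 pseudogenes named for 61 of the genes, and how reads shared with such copies were counted is not given in the sources used here, so levels of these genes are uncertain to that extent.

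Taken as a sum, the 82 genes held a little under 1% of all gene counts. In NLGF the median share was 0.801% at week 3 (3 other libraries: 0.767, 0.801 and 0.897%), 0.908% at week 8 (0.874 to 0.945%) and 0.988% at week 24 (0.944 to 1.03%). In WT it was 0.895% at week 3 (0.764 to 0.932%), 0.895% at week 8 (0.649 to 0.957%) and 0.942% at week 24 (0.902 to 0.984%). The deep NLGF week 3 libraries had the lowest median, 0.738% (0.721 to 0.845%). The ranges of NLGF week 24 and WT week 24 overlap, and those of the deep libraries and WT week 3 overlap, since deep male 5 (0.845%) lay above WT males 2 and 3 (0.764 and 0.84%). In bulk tissue fewer cells of a type and less RNA per cell cannot be told apart.

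**Figure D1:**
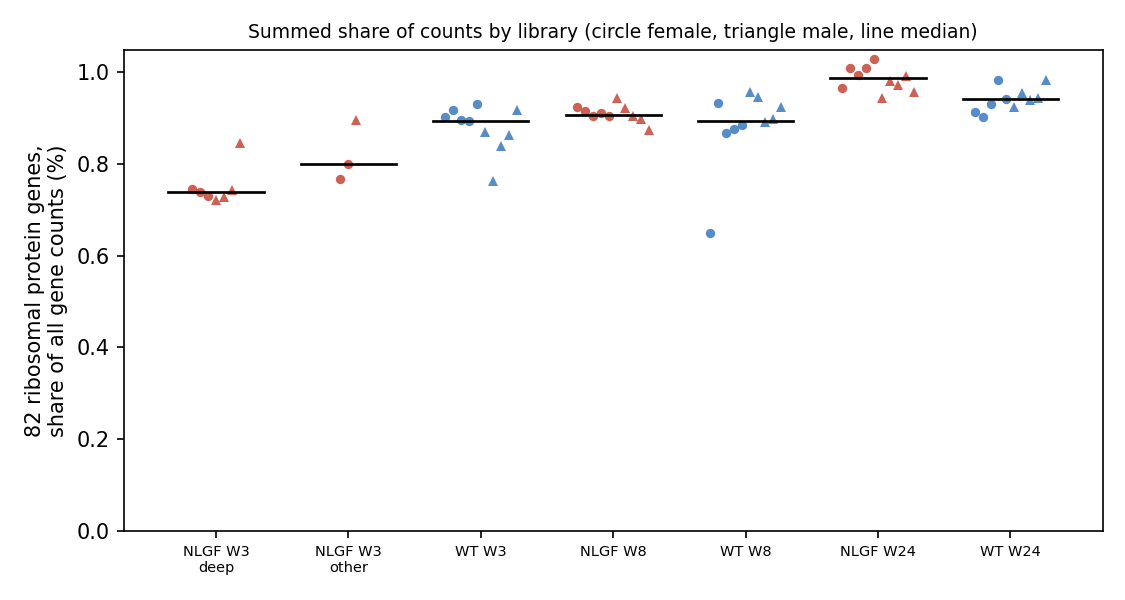
Summed share of gene counts held by the 82 ribosomal protein genes (y axis, %) in each library, by genotype and week (x axis), circles female, triangles male, line the median. The 7 deep NLGF week 3 libraries have a median of 0.738%, and WT week 8 female 1 lies alone at 0.649%.

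At week 3 the calls between genotypes came with the 7 deep NLGF libraries. With the deep libraries against WT week 3, 43 of the 82 genes were lower and 4 higher at an adjusted p under 0.05 (edgeR quasi-likelihood test, Benjamini-Hochberg over 17084 genes), where 21.5% of all genes were called, 11.9% lower and 9.57% higher. The median log2 fold change of the 82 was -0.20, beside 0.00218 over all genes. Of the small subunit 15 of 33 and of the large subunit 28 of 49 were lower.
Rpl5, which with Rpl11 carries a small ribosomal RNA into the large subunit, had 59 to 66.2 CPM in the deep libraries (median 60.9) and 102 to 189 CPM in WT (median 118). The groups do not overlap, and the log2 fold change was -1.01 ± 0.0976 (SE, adjusted p = 4.42e-07). Rps6, the substrate of S6 kinase whose phosphorylation is used as a readout of mTOR signalling, had 58.3 to 66.4 CPM in the deep libraries (median 62.5) and 91.2 to 110 CPM in WT (median 97.4), with a log2 fold change of -0.65 ± 0.0491 (adjusted p = 1.48e-08). Rps3a1, a small-subunit protein, was at 78.1 to 96.4 CPM in the deep libraries and 122 to 173 CPM in WT, a log2 fold change of -0.62 (adjusted p = 2.54e-06). Rpl3, which lies close to the peptidyl transferase centre, averaged 220 ± 12.2 CPM in the deep libraries and 295 ± 14.8 CPM in WT (SD, n = 7 and 10; adjusted p = 4.65e-06). Rps9 averaged 96.6 ± 5.06 CPM in the deep libraries and 124 ± 11.4 CPM in WT (adjusted p = 5.31e-05), and Rps23, a decoding-centre protein, 88.4 ± 6.91 against 145 ± 28.9 CPM (adjusted p = 0.000126).
The strongest fold change was that of Rpl32l, at 0.170 to 0.253 CPM in the deep libraries and 0.430 to 1.81 CPM in WT (log2 fold change -2.27 ± 0.280, adjusted p = 1.12e-05). The pseudogene rows moved the same way there: 7 of 8 tested were lower in the deep libraries, at a median of -2.87 on the log2 scale, and whether the rows share reads was not tested.

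The 4 genes higher in the deep libraries included Rps26, a small-subunit protein near the mRNA exit site. Rps26 had 78.1 to 90.6 CPM in the deep libraries (median 83.1), 60.5, 59.5 and 57.0 CPM in the 3 other NLGF libraries and 46.0 to 71.2 CPM in WT (median 64.0). Every deep library lay above every WT library (log2 fold change 0.43 ± 0.0702, adjusted p = 0.000217), and the 3 others fell inside the WT range. Rps24 (0.37, adjusted p = 0.00463), Rps15a (0.21, adjusted p = 0.016) and Rpl29 (0.35, adjusted p = 0.0392) were the others. Rps27 had the largest positive fold change, 0.44 ± 0.182, and did not pass (adjusted p = 0.0952).

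The 3 other NLGF week 3 libraries showed no such set of calls. None of the 82 genes was called against WT week 3, where 0% of 17187 genes were called by edgeR. At an unadjusted p under 0.05, 16 of the 82 were lower and 0 higher, beside 1006 and 959 of all 17187 genes, and DESeq2 called 3 lower. The median was -0.06 on the log2 scale. Rps6 was at 92.5, 91.9 and 104 CPM in these libraries (females 2 and 3, male 1) and Rpl5 at 88.2, 111 and 116 CPM, against the WT ranges above. Rpl38, a large-subunit protein known to favour Hox mRNAs in the mouse embryo, had the smallest p (log2 fold change -0.38 ± 0.0876, adjusted p = 0.197) and Rps27l the lowest fold change (-0.64 ± 0.161, adjusted p = 0.261). Rplp0 was highest after Rpl32l, at 0.23, and was not called.

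Within NLGF week 3, the deep against the 3 other libraries gave 18 lower and 3 higher of the 82, where 14.3% of all genes were called, 7.82% lower and 6.51% higher. Rpl5 (log2 fold change -0.79 ± 0.0778, adjusted p = 7.68e-05), Rps6 (-0.61), Rpl3 (-0.57), Rps3a1 (-0.57) and Rps3 (-0.47, adjusted p = 0.00394) were lower in the deep libraries. Rps26 (0.52 ± 0.0724, adjusted p = 0.00119), Rps24 (0.30) and Rpl17 (0.46, adjusted p = 0.0412) were higher. Without NLGF week 3 male 1 this comparison called 6 of the 82, and without female 2 it called 13.

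With all 10 NLGF week 3 libraries, 19 of the 82 genes were lower than in WT and none higher, where 3.78% of all genes were called, 2.11% lower and 1.67% higher. The 6 with the smallest p were Rpl11, Rpl23a, Rps16, Rps23, Rpl5 and Rpl23. Rpl11, the partner of Rpl5 in restraining Mdm2, averaged 92.8 ± 9.52 CPM in NLGF libraries, against 132 ± 23.6 CPM in WT libraries (SD, n = 10 each; log2 fold change -0.50 ± 0.0910, adjusted p = 0.015). Rps23 had the largest fold change among the 19 after Rpl5, at -0.58 (adjusted p = 0.0151), with Rpl5 at -0.72 (adjusted p = 0.0171). Highest were Rps27 (0.35), Rps26 (0.30) and Rps24 (0.28), none of them called. The count was 39 without NLGF week 3 male 1, 8 without NLGF week 3 female 5 and 9 without NLGF week 3 female 4. With a term for the deep libraries, 0 of the 82 were called, Rps26 stood at -0.10 and Rpl32l at 0.24. That term leaves the genotype difference to the 3 other NLGF libraries, so it is no separate check on the comparison of those 3 with WT.

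**Figure D2:**
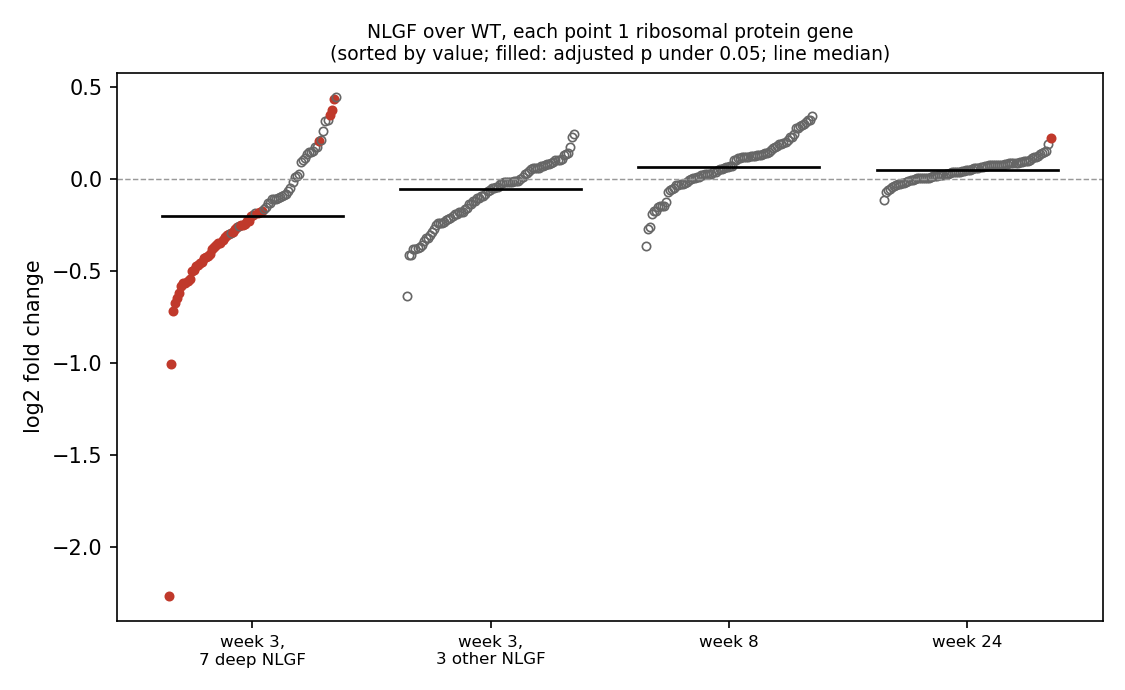
Log2 fold change of NLGF over WT (y axis) for each of the 82 genes at week 3 with the 7 deep and with the 3 other NLGF libraries, at week 8 and at week 24 (x axis), sorted by value, filled where called and with a line at the median. The deep libraries give 43 lower and 4 higher genes, the 3 others and week 8 none, and week 24 only Rps26.

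At week 8 no ribosomal protein gene was called between genotypes in either direction, and 0% of 16494 genes were called. At an unadjusted p under 0.05 in edgeR, 17 of the 82 were higher in NLGF and 4 lower, beside 523 and 769 of all 16494 genes, and DESeq2 called 0 of them. The fold changes ran from -0.36 (Rps14) to 0.34 (Rps29), with a median of 0.07. Rplp1 averaged 249 ± 24.2 CPM in NLGF libraries, against 210 ± 21.2 CPM in WT libraries (SD, n = 10 each; adjusted p = 0.633). Rpl13 (188.7 ± 14.1 against 161 ± 27.0 CPM) also had a small p before adjustment. The groups differed in spread: Rps14 was at 165 ± 17.0 CPM in NLGF libraries, against 217 ± 89.1 CPM in WT libraries, Rps29 at 158 ± 10.2 and 125 ± 38.2 CPM, and Rps27 at 64.7 ± 5.83 and 52.4 ± 23.9 CPM. Rpl22l1, Rpl41 and Rpl13a stood at 0.32, -0.26 and -0.27, again not called.

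At week 24 the 82 genes differed little between genotypes, though most were slightly higher in NLGF, and 1 of them passed: Rps26. It had 69.3 to 82 CPM in NLGF (median 77.8) and 62.5 to 70.5 CPM in WT (median 64.7), a log2 fold change of 0.22 ± 0.0386 (adjusted p = 0.00224), where 0.878% of all genes were called, 0.8% higher and 0.0787% lower. The groups overlap only narrowly. Without any single library in turn Rps26 remained called, and 2 genes were called without WT week 24 female 3 or WT week 24 male 3. Rps26 was not called in either sex alone or in a fit of all 60 libraries. The median of the 82 was 0.05 on the log2 scale, with 66 positive, beside a median of -0.000633 over all genes. Of the small-subunit genes 30 of 33 were positive and of the large-subunit genes 36 of 49. Next after Rps26 were Rps27 (0.19 ± 0.0499, adjusted p = 0.106) and Rpl10, which joins the large subunit last (0.15 ± 0.0413, adjusted p = 0.123). The lowest were Rpl39, a small protein of the exit tunnel (-0.12), Rpl35a (-0.07) and Rps23 (-0.06), none called and each slightly positive in females alone. Microglia markers moved with the genotype at this age: 4 of 6 were called higher, and their sum was 301 to 388 CPM in NLGF and 262.5 to 300.8 CPM in WT. Their part in the Rps26 difference was not tested.

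Between week 3 and week 24 more ribosomal protein genes rose than fell in each genotype, and in WT most did not pass the test. In NLGF, week 24 against week 3 (10 and 3 libraries) had 53 of the 82 higher and 2 lower, where 28% of all genes were called and 13.7% were higher. In WT (10 and 10 libraries), 32 rose and 6 fell, where 21.9% of all genes were called and 10.6% were higher. The median log2 fold change of the 82 was 0.27 in NLGF and 0.16 in WT, beside 0.0282 and 0.00776 over all genes. In NLGF 22 of 33 small-subunit and 31 of 49 large-subunit genes rose, and in WT 12 of 33 and 20 of 49. Without each library in turn the count of calls ran from 47 to 57 in NLGF and from 30 to 44 in WT, and 39 and 25 of the genes were called in every such fit.

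Rpl27a, a large-subunit protein, had 69.0, 70.6 and 56.9 CPM in NLGF at week 3 (females 2 and 3, male 1), 91.1 to 109 CPM at week 8 and 97.5 to 121 CPM at week 24. Every NLGF library of week 24 lay above every one of the 3 at week 3, at a log2 fold change of 0.75 ± 0.0742 (adjusted p = 3.29e-07). In WT the same gene had medians of 81.1, 96.5 and 103 CPM at weeks 3, 8 and 24. Rpl35, known to sit beside the exit of the peptide tunnel, averaged 68.5 ± 4.70 CPM at week 24 and 45.0 ± 3.36 CPM at week 3 in NLGF (SD, n = 10 and 3; adjusted p = 1.3e-06). Rpl34 (0.46), Rps24 (0.58), Rpl35a (0.65) and Rpl17 (0.66) followed, with adjusted p from 2.89e-06 to 4.09e-06. Rpl35a, mutated in some cases of Diamond-Blackfan anaemia as are Rps19 and Rps24, was called in both genotypes. It had 36.4 to 53.4 CPM in NLGF at week 3, 60.6 to 67.8 CPM at week 8 and 62.7 to 78.2 CPM at week 24, and in WT 37.6 to 64.9, 29 to 69.3 and 67.2 to 80.0 CPM. In WT its week 24 libraries all lay above its week 3 libraries (0.50 ± 0.106, adjusted p = 0.000778).

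The gene with the smallest p in WT was Rplp1. It had 132 to 217 CPM at week 3 (median 188), 179 to 247 CPM at week 8 (median 204) and 224 to 334 CPM at week 24 (median 242), and week 24 exceeded week 3 by 0.48 ± 0.0828 on the log2 scale (adjusted p = 7.33e-05). Week 24 libraries lay above all week 3 libraries without overlap. Genes of both subunits rose in WT, among them Rps15, a late maturation protein (0.44), Rps19 (0.42) and Rps10, a target of ribosome quality control (0.34, adjusted p = 0.00103).

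Rps2 and Rplp0 went the other way. Rps2, a small-subunit protein at the mRNA entry site, had 234 to 302 CPM in WT at week 3 (median 261), 158 to 273 CPM at week 8 (median 208) and 181 to 217 CPM at week 24 (median 201). The log2 fold change of week 24 over week 3 was -0.35 ± 0.0917 in NLGF (adjusted p = 0.00574), where week 3 stood at 210, 220 and 314 CPM, and -0.40 ± 0.0776 in WT (adjusted p = 0.000345). Rplp0, the stalk base, averaged 149 ± 10.6 CPM at week 24 and 189.5 ± 28.2 CPM at week 3 in NLGF (SD, n = 10 and 3; adjusted p = 0.00358). In WT Rplp0 was at -0.23 ± 0.0951 and was not called (adjusted p = 0.0809). Rplp1 also rose in NLGF (0.39, adjusted p = 0.0012), while Rplp2 was not called in either genotype (0.06 in NLGF and 0.09 in WT). Among paralogs, Rpl22l1 rose in NLGF (1.00 ± 0.130, adjusted p = 8.36e-06) and WT (0.71 ± 0.164, adjusted p = 0.00203), while Rpl22 was not called in either. Rps27 rose in both (0.73 and 0.64), and Rps27l rose in NLGF (0.81, adjusted p = 0.00139) but was not called in WT (0.15). The other genes that fell in WT were Rpl7l1 (-0.21, adjusted p = 0.0124), Rpl41 (-0.31), Rpl28 (-0.23), Rpl18 (-0.19) and Rpl7a (-0.14, adjusted p = 0.0481).

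**Figure D3:**
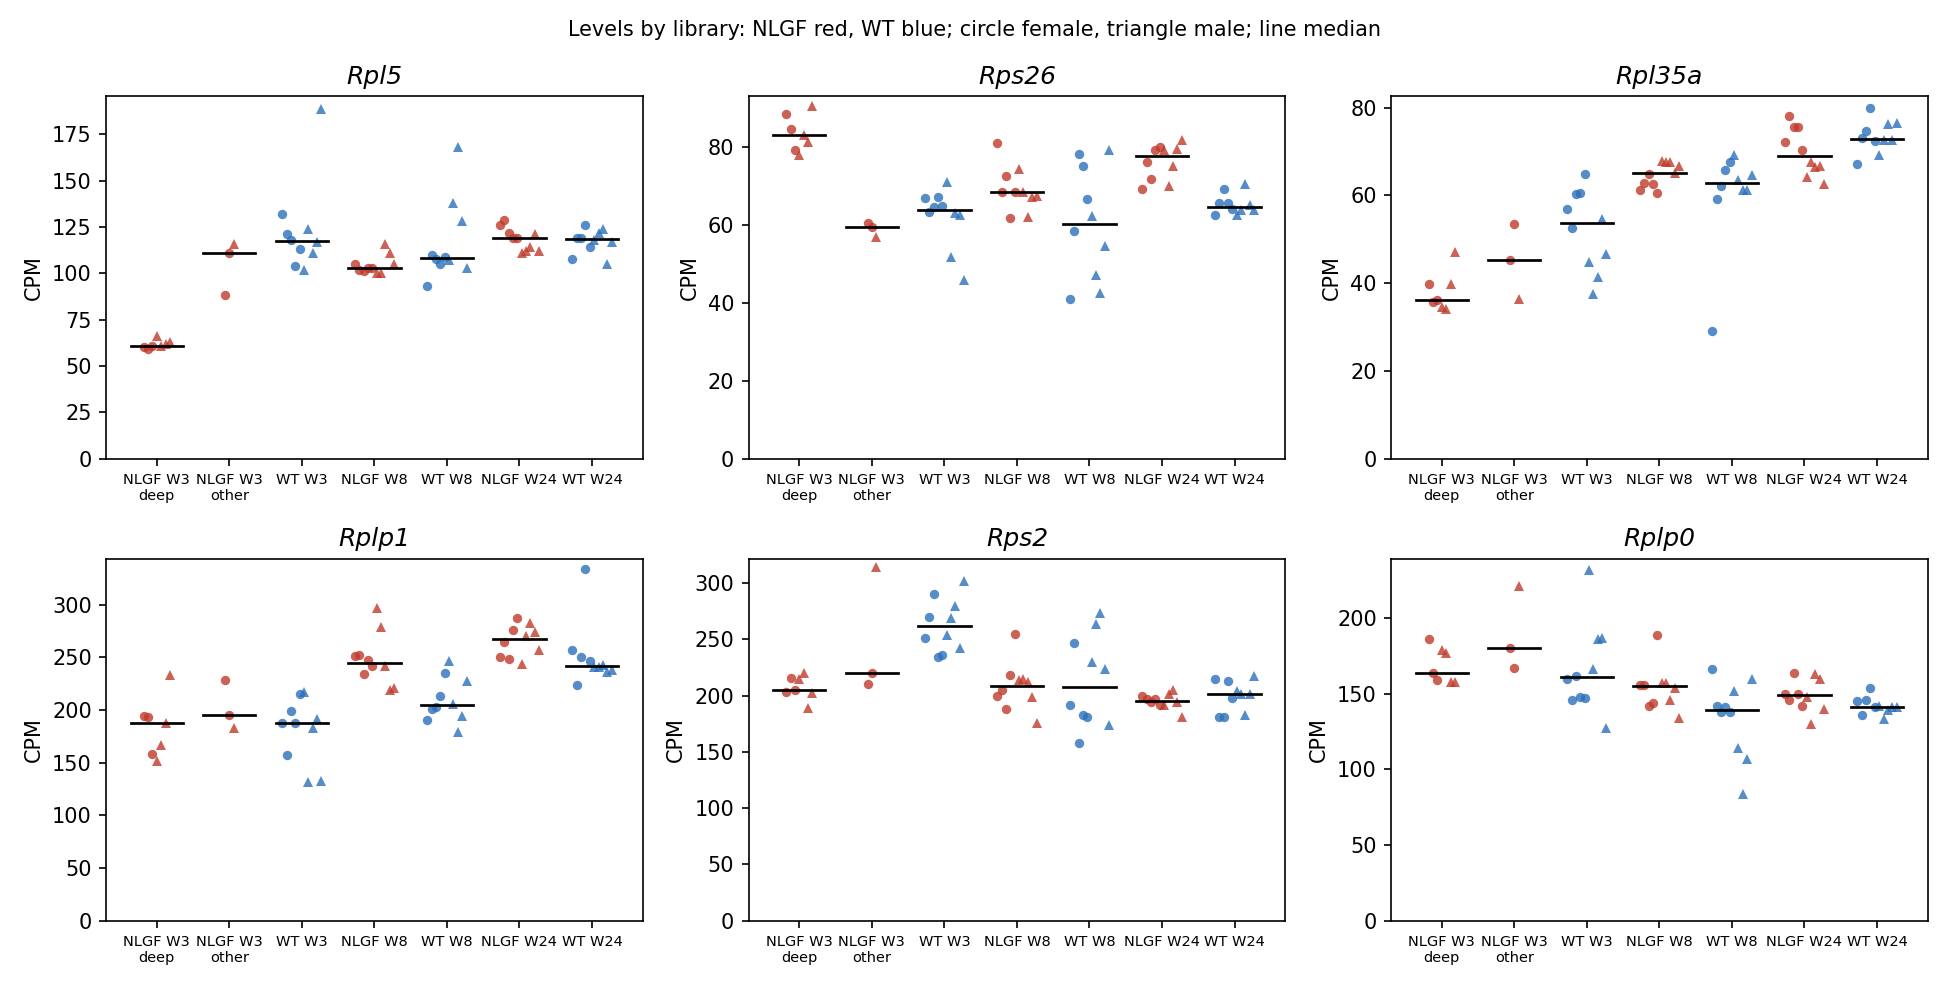
Levels in CPM (y axes) of 6 ribosomal protein genes in each library by genotype and week (x axes), NLGF red, WT blue, circles female, triangles male, line the median. Rpl5 is at 59 to 66.2 CPM in the deep NLGF libraries alone, Rpl35a and Rplp1 are higher at week 24 than at week 3, and Rps2 is lower.

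Between week 8 and week 3 the genotypes gave different counts. In NLGF 36 of the 82 rose and 1 fell, where 14.6% of all genes were called, 7.19% higher and 7.42% lower. In WT 1 rose and 4 fell, where 7.14% were called, 2.63% higher and 4.51% lower. The rises in NLGF were led by Rpl27a (0.62 ± 0.0737, adjusted p = 4.27e-05), Rpl34 (0.38), Rpl22l1 (0.89), Rpl35a (0.54), Rpl17 (0.54) and Rpl38 (0.56), and Rplp0 fell (-0.31 ± 0.0850, adjusted p = 0.0178). Rpl22l1 was at 25.2 ± 2.03 CPM at week 8 and 13.6 ± 3.12 CPM at week 3 in NLGF (SD, n = 10 and 3). In WT, Rps2 (-0.31, adjusted p = 0.00997), Rps4x, the X-linked small-subunit protein (-0.29), Rpl7 (-0.22) and Rplp0 (-0.31, adjusted p = 0.0399) fell. Both counts leaned on single libraries. Without NLGF week 3 male 1 the NLGF count was 17. Without WT week 8 female 1 the WT count was 14, and without that library, WT week 3 male 5 and WT week 8 male 3 it was 18, of which 15 rose.

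Between week 24 and week 8, 13 of the 82 rose in NLGF and none fell, where 2.16% of all genes were called and 1.51% were higher. In WT none was called by edgeR, where 0.279% of genes were called, although 22 were higher and 2 lower at an unadjusted p under 0.05, beside 843 and 1092 of all 16844 genes, and DESeq2 called 2. The median of the 82 was 0.11 in NLGF and 0.14 in WT, so the WT median was no smaller. Rps6 averaged 111 ± 3.85 CPM at week 24 and 98.0 ± 2.34 CPM at week 8 in NLGF (SD, n = 10 each; log2 fold change 0.18 ± 0.0313, adjusted p = 0.00118), and the groups did not overlap. Rps4x (157 ± 4.71 and 136 ± 5.64 CPM, adjusted p = 0.00368) did not overlap either. Rpl10, Rps24, Rpl37a and Rps25 rose by 0.18 to 0.21, with adjusted p from 0.00596 to 0.0217. In WT the smallest p belonged to Rps12 (0.20, adjusted p = 0.122) and Rpl37a (0.25, adjusted p = 0.125). The NLGF count was 6 without NLGF week 8 female 5, the library with high oligodendrocyte markers, 6 without NLGF week 24 male 4 and 7 without NLGF week 24 female 1.

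How the genotype effect itself changed with age was tested next. No gene of the 82 was called for the genotype effect at week 8 minus week 3 (0% of 18779 genes called; 20 positive and 1 negative at an unadjusted p under 0.05), at week 24 minus week 3 (0.0799% called; 14 and 1) or at week 24 minus week 8 (0.325% called; 4 and 0), all in edgeR and without the deep libraries, and DESeq2 called 0 in each. Over all 18779 genes, 1028 were positive and 1127 negative at that p for week 8 minus week 3, 1137 and 1053 for week 24 minus week 3, and 526 and 238 for week 24 minus week 8. Those with the smallest p were Rpl35 at week 24 minus week 3 (0.55 ± 0.160, adjusted p = 0.26) and Rpl27 and Rpl27a at week 8 minus week 3 (0.48 ± 0.145 and 0.47 ± 0.132, adjusted p = 0.352 for both). For Rpl27a at week 24 minus week 3 it was 0.42 ± 0.132 (adjusted p = 0.276), and at week 24 minus week 8 Rpl41 (0.30) and Rpl28 (0.22) had the smallest p (adjusted p = 1). By size, Rps27l came first at week 8 minus week 3 (0.85 ± 0.276, adjusted p = 0.352) and at week 24 minus week 3 (0.78 ± 0.275, adjusted p = 0.306), and Rps14 at week 24 minus week 8 (0.40 ± 0.180, adjusted p = 1). With the deep libraries kept, 6 and 11 of the 82 were called at week 8 and week 24 minus week 3, and without WT week 8 female 1 week 24 minus week 3 gave 3.

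**Figure D4:**
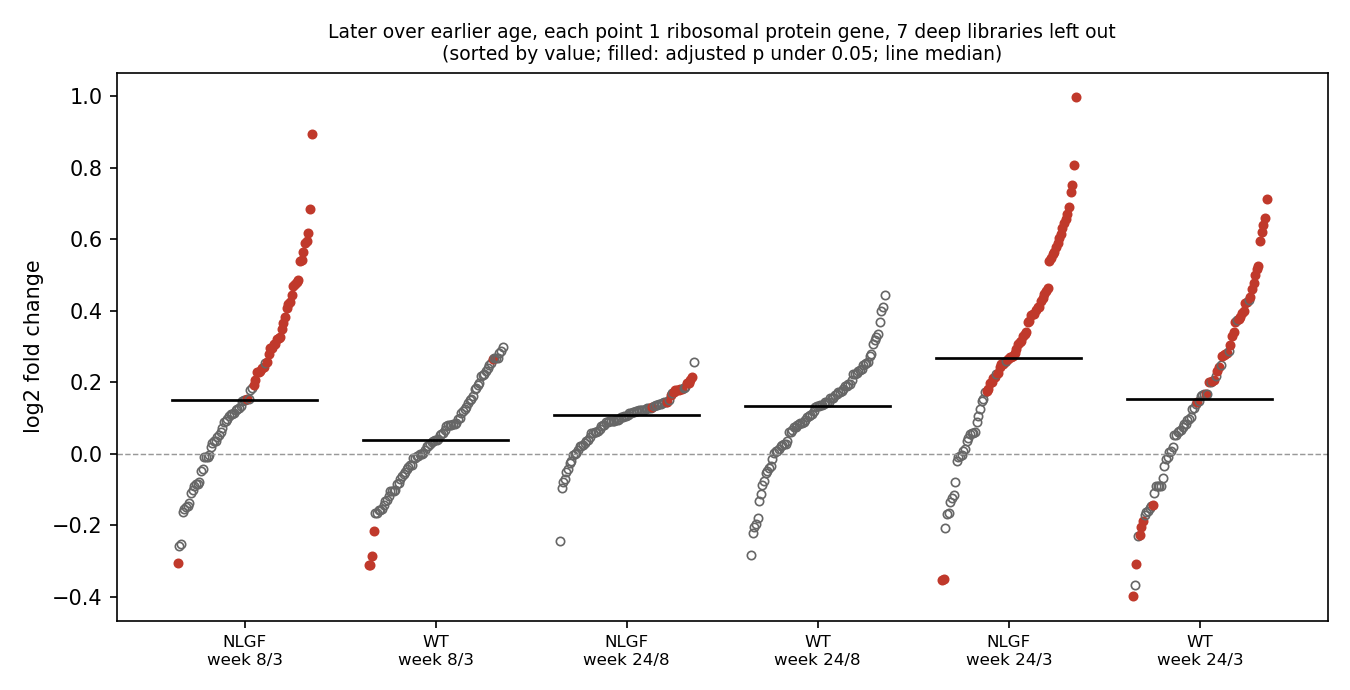
Log2 fold change of the later over the earlier age (y axis) for each of the 82 genes in NLGF and WT (x axis), without the deep libraries, sorted by value, filled where called and with a line at the median. For week 24 over week 3, 53 genes rose in NLGF and 32 in WT; for week 24 over week 8, 13 rose in NLGF and none was called in WT.

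Other genes of ribosome supply moved in both directions. Over week 24 against week 3 in NLGF, where 13.7% of all genes were higher and 14.3% lower, 8 of 45 ribosome biogenesis genes rose and 13 fell, with Npm1 and Ncl, abundant nucleolar proteins, rising (0.42 and 0.36) and Bop1, Bysl and Rrp12, assembly factors, falling (-0.45, -0.30 and -0.36). In WT, where 10.6% of all genes were higher and 11.3% lower, 0 of the 45 rose and 3 fell. Of 44 translation factors 11 rose and 11 fell in NLGF, and 6 rose and 3 fell in WT. Eif3e, Eif3h, Eif4e and Eif5 rose in both, and Eif4g1, Eif3b and Pabpc1 fell in both. Mitochondrial ribosomal protein genes, which serve a separate ribosome, had 15 of 77 higher and 5 lower in NLGF and 10 higher and 1 lower in WT, led by Mrps30 in WT (0.57, adjusted p = 4.98e-05). Among 20 regulators of mTOR and TOP mRNAs, Mycn was lower at week 24 in both (-0.82 and -0.66). Larp1 was lower in NLGF (-0.14, adjusted p = 0.0487) and Rheb, the activator of mTOR, was higher there (0.28). The number called among all 20 is not given here, so these genes do not describe the list. Fau, Rpl36al and the scaffold Rack1 were not called in either genotype (-0.06 to 0.14).
In the deep NLGF libraries against WT, 16 of the 44 translation factors were lower and 4 higher, and 18 of the 45 biogenesis genes were lower and 1 higher, where 11.9% of all genes were lower and 9.57% higher. Fbl, which methylates ribosomal RNA (-0.75), Eif6, which holds the subunits apart (-0.50), Eef1b2 (-0.69) and Eef1g (-0.59), both of the elongation complex, were among the lower genes. Fau (-0.31, adjusted p = 0.00355) and Rpl36al (-0.32, adjusted p = 0.00662) were lower as well. At week 8 and at week 24, 0 of the 45, 44, 77 and 20 genes of these lists were called between genotypes.

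Cell markers moved with age as well. In NLGF and in WT all 6 oligodendrocyte, all 5 oligodendrocyte precursor and all 5 proliferation and immature neuron markers were lower at week 24 than at week 3. The summed oligodendrocyte markers were at 2958 to 5624 CPM at week 24 and 8330 to 9659 CPM at week 3 in NLGF (3 other libraries), and at 2638 to 4653 and 6425 to 16170 CPM in WT. Blood markers fell in 3 of 5 in NLGF and in 5 of 5 in WT, and 4 and 3 of 6 microglia markers rose. Over all genes, 14.3% were lower and 13.7% higher in NLGF, and 11.3% and 10.6% in WT. No marker of any list was at 0 in all libraries of a group, and the 6 hippocampal markers were present in every group (547 to 1078 CPM summed) with none called between week 24 and week 3. In the deep libraries against WT week 3, 3 of 6 microglia and 2 of 7 neuron markers were higher, where 9.57% of all genes were higher and 11.9% lower. The summed astrocyte markers were at 7217 to 8660 CPM in the deep libraries (median 8039) and at 6748 to 8748 CPM in WT week 3 (median 7179). The part of these markers in the changes of the ribosomal protein genes was not tested.

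Fold changes went with transcript length in several comparisons, over age and outside it. Across the 80 genes with a known length, the fold change of week 24 over week 3 had a Spearman correlation with length of -0.44 in NLGF and -0.40 in WT, so shorter transcripts rose more; the points share libraries, and genes are not independent replicates. Among genes under 600 bases, the 22 ribosomal protein genes had a median log2 fold change of 0.46 in NLGF, beside 0.131 for the 169 other protein-coding genes of that length, and in WT 0.28 beside -0.00578 for 149. Among those of 600 to 1000 bases the medians were 0.25 beside 0.0767 in NLGF and 0.13 beside -0.00469 in WT. The correlation with length was as large between females and males (-0.403), and it was -0.313 between genotypes at week 8. It was -0.462 for week 8 over week 3 and -0.0306 for week 24 over week 8 in NLGF, and -0.346 and -0.328 in WT. Between genotypes it was -0.0792 in the deep libraries, 0.134 in the 3 others and -0.0634 at week 24.

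Over the 53 libraries the genes did not vary as one block. Each gene's log2(CPM + 0.5) was taken as its deviation from the mean of its genotype and week. The median Pearson correlation of these deviations over 3321 pairs was 0.28, with 73.7% of pairs positive, and 41 genes correlated above 0.5 with the mean of the others, led by Rpl27a (0.89), Rpl24 (0.87) and Rpl35a (0.86). The points share libraries and library scaling. Rpl3, Rpsa, Rps3, Rps14, Rplp0 and Rpl5 were at or below 0 (-0.18 to -0.02). Rps14 and Rps3 varied together across libraries (0.944), as did Rpl10 and Rps27 (0.921), and the pairs ran against each other (Rps14 with Rps27 -0.824, Rps3 with Rps27 -0.815).
WT week 8 male 3 had 414 CPM of Rps14 and 19.4 CPM of Rps27, WT week 3 male 5 had 375 and 17.1 CPM, and WT week 8 male 2 had 316 and 31.2 CPM. NLGF week 3 male 1 had 256 and 26.3 CPM, and WT week 8 female 1 had 192 and 25.2 CPM. In NLGF week 24 Rps27 was at 71.4 to 94.7 CPM and in WT week 24 at 63.7 to 78.7 CPM. Within groups Rps27, Rps29 and Rps27l varied most (SD of log2 CPM 0.432, 0.428 and 0.368). Rps29 was at 24.5 CPM in WT week 3 male 5 and at 43.4 CPM in WT week 8 male 3.

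**Figure D5:**
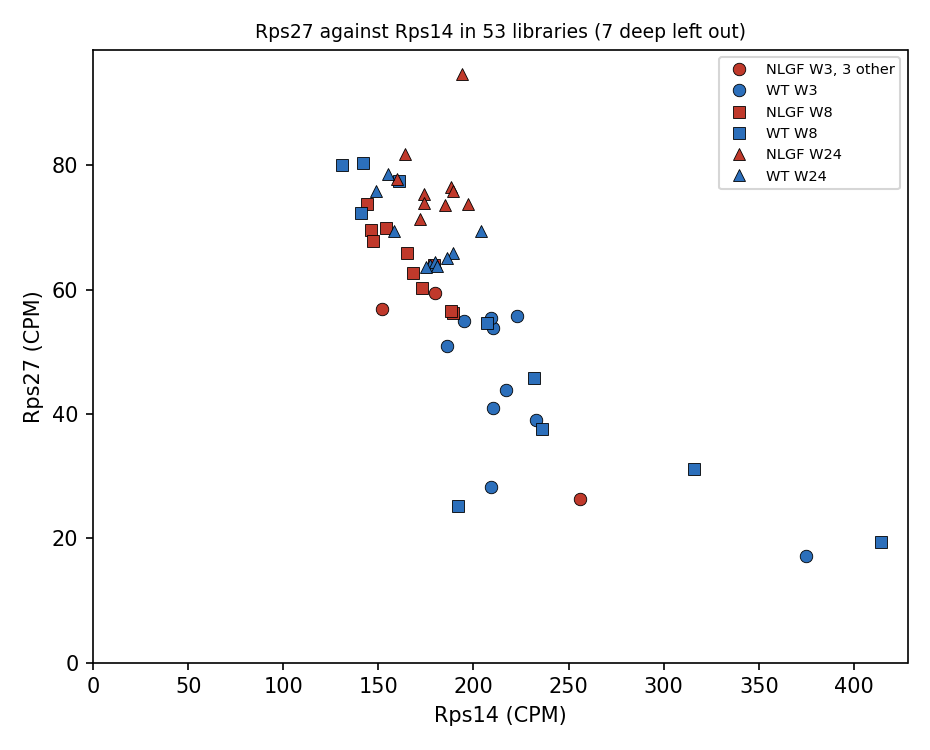
Rps27 (y axis, CPM) against Rps14 (x axis, CPM) in the 53 libraries without the deep ones, NLGF red and WT blue, circles week 3, squares week 8, triangles week 24. Libraries with over 300 CPM of Rps14 are WT week 8 males 2 and 3 and WT week 3 male 5, each with at most 31.2 CPM of Rps27.

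Females and males were compared over the 53 libraries. None of the 82 was called between females and males, where 0.0851% of all genes were called, with 9 higher and 7 lower at an unadjusted p under 0.05 in edgeR, beside 629 and 517 of all 19976 genes, and 0 calls by DESeq2. Rps27l (6.56 ± 1.42 CPM in females and 5.51 ± 1.65 CPM in males, pooled over genotype and age) was among the genes with the smallest p (adjusted p = 0.848).

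The authors' deposited table of genotype differences lists 44 of the 82 genes at week 3, 41 lower and 3 higher in NLGF, among 2628 genes listed at that age. It lists 4 genes at week 8 and 156 at week 24 in all, none of them among the 82. Of the 35976 gene rows, the number that the authors tested is not known here, so no share over all genes stands beside the 44. Of the 44, 19 were also called here with all 10 NLGF libraries, the 7 deep ones among them. The authors' week 3 list comes from the same series, so it is no separate check on the week 3 calls here. The authors' deposited table gives Rpl5 a log2 fold change of -0.70 (adjusted p = 2.31e-09), and its entries reach an adjusted p of 0.06.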

How the data were processed

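The authors deposited whole-number read counts per gene for 60 libraries and a table of their own genotype comparisons with log2 fold changes and p-values; the submitters' processing notes name FastQC, STAR, edgeR, DESeq2 and mm10, without versions, and the counting step is not given in the sources used here. The deposited log2 fold changes and p-values were only copied. From the counts, CPM on TMM-scaled totals over all 60 libraries and edgeR 4.0.16 quasi-likelihood tests (R 4.3.3, limma 3.58.1; filterByExpr with a minimum count of 10, sex as covariate, robust fit, Benjamini-Hochberg over all genes tested, adjusted p under 0.05) were computed in 16 comparisons. Lengths and positions are from GENCODE vM21 and start sites from RefSeq (GRCm38.p6). Age comparisons fitted each genotype over 3 ages. The fits were tested on simulated data. Alternatives were RLE factors, DESeq2 1.42.0, other filters, a replicate block, no sex term, all libraries in one fit, each sex alone, a term for the deep libraries and each library left out, with the spread pooled. Leaving out 3 WT libraries together was chosen after seeing the data. Genes named are, per comparison, up to 6 called genes with the smallest p in each direction (or the 2 with the smallest p where none was called), the 3 largest genotype fold changes in each direction, paralogs and stalk genes, and the 3 highest and 3 lowest levels per length and the 3 largest SDs. Other genes, such as those named for co-variation or from the pathway lists, were chosen after their values were seen. The genes and lists were chosen with earlier results of these data known. Results for some genes are not reported here. Depth limits low rows such as Rpl32l.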

Additional observations from a re-analysis of the deposited data

Results flagged for a closer look

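In 48 of the ribosomal protein genes and in their summed share, 294 groups of 7 to 10 libraries were searched for a library far from the rest of its group by Dixon's test at 95%, with the deep NLGF libraries as a group of their own. It marked 39 values, where chance marks about 1 group in 20, and the libraries below hold them all.

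WT week 8 female 1 was the lowest of its group in the summed share (0.649%), Rpl22l1 (7.65 CPM), Rpl23 (42.5 CPM), Rpl23a (58.2 CPM), Rpl27 (24 CPM), Rpl27a (50.8 CPM), Rpl34 (31.6 CPM), Rpl35 (26.5 CPM), Rpl35a (29 CPM), Rpl38 (41.9 CPM), Rpl39 (19.9 CPM), Rps4x (102 CPM) and Rps6 (71 CPM). WT week 3 male 5 was the lowest of its group in Rpl29 (39.8 CPM) and the highest of its group in Rpl5 (189 CPM), Rps14 (375 CPM), Rps23 (212 CPM), Rps3 (307 CPM), Rps3a1 (173 CPM) and Rps4x (241 CPM). NLGF week 3 male 5 was the highest of its group in the summed share (0.845%), Rpl13a (201 CPM), Rpl17 (118 CPM), Rpl27a (88.4 CPM), Rpl35a (47 CPM) and Rpl38 (80.8 CPM). WT week 24 female 4 was the highest of its group in Rpl7l1 (32.5 CPM), Rplp1 (334 CPM), Rps12 (119 CPM), Rps29 (203 CPM) and Rps9 (138 CPM). NLGF week 8 female 5 was the highest of its group in Rplp0 (189 CPM), Rps2 (255 CPM) and Rps9 (133 CPM). NLGF week 8 male 3 was the highest of its group in Rpl34 (61.1 CPM). NLGF week 8 male 1 was the highest of its group in Rps19 (93 CPM). NLGF week 24 female 5 was the highest of its group in Rps27 (94.7 CPM). NLGF week 3 female 1 was the lowest of its group in Rps3a1 (78.1 CPM). WT week 24 male 3 was the highest of its group in Rps6 (116 CPM).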

How the results depend on the processing

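Counts below are members called out of 82. At week 3 (19) the count was 30 with DESeq2, 39 with all 60 libraries in one fit, 0 in males alone and 0 with a term for the deep libraries, and 8 to 39 without each library. The term for the deep libraries leaves the genotype difference to the 3 other NLGF week 3 libraries. At week 24 (1) it was 3 with DESeq2, 0 with all 60 libraries in one fit and 0 in females or in males alone, and 1 to 2 without each library. For the 3 other NLGF libraries (0) DESeq2 gave 3. Deep against other NLGF libraries (21) ran from 6 to 28 without each library. For WT week 8 over week 3 (5) it was 3 without a filter on low counts, 3 with the replicate block and 18 without WT week 3 male 5, WT week 8 male 3 and WT week 8 female 1, and 4 to 14 without each library. For WT week 24 over week 8 (0) DESeq2 gave 2. For NLGF week 8 over week 3 (37) it was 17 to 41 without each library. For NLGF week 24 over week 8 (13) it was 7 without a filter, 8 with the replicate block and 7 with the deep libraries kept, and 6 to 15 without each library. For the change of the genotype effect (0), keeping the deep libraries gave 6 at week 8 minus week 3 and 11 at week 24 minus week 3, where leaving out the 3 WT libraries gave 3 and single libraries 0 to 3. The remaining comparisons kept their counts within 1.5 times. Fewer genes were called in every fit without a single library: 8 of the 19 at week 3, 39 of the 47 in the deep libraries against WT, and 5 of the 21 in deep against other NLGF libraries. For week 8 over week 3 these were 14 of the 37 in NLGF and 3 of the 5 in WT, and for week 24 over week 8 in NLGF 5 of the 13.

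Among named genes, 5 values changed sign: at week 3 with a term for the deep libraries, Rps26 (-0.10) and Rpl32l (0.24), and at week 24 in females alone Rpl39 (0.0324), Rpl35a (0.0203) and Rps23 (0.00638). The causes were not tested. Same-numbered libraries did not pair: their deviations correlated above 0.1 in 4, 3 and 6 of 10 pairs at weeks 3, 8 and 24, and 1, 0 and 3 of 10 correlated best with their own number, so the block shares only a number. Depth limits the rows under a few CPM, and NLGF week 3 rests on 3 libraries in comparisons over age.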
